A study of Mus musculus with 34 samples.

Results

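Satb1 encodes SATB1 (special AT-rich sequence-binding protein), a nuclear protein that binds AT-rich DNA, holds chromatin loops and recruits chromatin-modifying complexes, and that is abundant in thymocytes and resting T cells. In regulatory T (Treg) cells, which suppress immune responses and depend on the forkhead transcription factor Foxp3, SATB1 acts early, before Foxp3 is expressed, to open Treg-type enhancers, and mature Treg cells are known to hold its level low, with Foxp3 known as a repressor of the gene. BATF, an AP-1 family leucine zipper protein, and IRF4, a member of the interferon regulatory factor family that joins BATF on composite DNA motifs, are needed for the differentiation of effector Treg cells.

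The Satb1 locus comprised every peak of the 4 deposited peak tables whose nearest protein-coding gene body was Satb1, counting 0 bp inside the gene and allowing at most 100 kb outside it. This rule gave 24 of the 41612 peaks in all: 10 of 6396 Foxp3 peaks, 7 of 16109 peaks in the first BATF table, 4 of 9973 in the second BATF table and 3 of 9134 IRF4 peaks. The gene itself was chosen from measured values, because a Foxp3 peak inside it was among the most reduced in effector against central Treg cells. The values of that contrast at Satb1 are therefore given as a description, with no test.

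The study profiled Foxp3, BATF and IRF4 by chromatin immunoprecipitation and sequencing (ChIP-seq) in CD4 T cells of C57BL6/J mice, freshly sorted from spleen and lymph nodes, in 24 ChIP libraries and 10 input libraries. All mice carried Foxp3-IRES-hCD2, a reporter that puts human CD2 on Foxp3-expressing cells. Treg cells were CD4+hCD2+ and conventional (Tconv) cells CD4+hCD2-. Foxp3 was profiled in 2 libraries each of bulk Treg cells, bulk Treg cells of the Foxp3-IRES-hCD2.Batf-/- genotype, central Treg cells (cTreg) and effector Treg cells (eTreg), the last 2 groups separated by surface markers of resting and activated cells. BATF was profiled in 2 libraries each of Treg and Tconv cells, and IRF4 in 4 libraries each. A second BATF table held the same Treg and Tconv libraries with 2 libraries of CD4+hCD2+GFP- cells from Foxp3R397W-IRES-hCD2/Foxp3-IRES-GFP mice and 2 controls of the genotype Foxp3WT-IRES-hCD2/Foxp3-IRES-GFP. R397W is a substitution in the DNA-binding forkhead domain of Foxp3, and GFP- cells of these mice are those that use the hCD2 allele. Age is not given in the sources used here. The labels do not say whether libraries came from separate mice or pools, so p-values measure the spread between these libraries, which may be technical.

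The deposited values are reads in a peak after scaling of each library, called normalised reads here, and peaks are 400 bp long with few exceptions. Reads in peaks per library ran from 1377509 to 2280493 in the first BATF table, from 144319 to 1009580 in the second, from 164740 to 393310 in the 7 Foxp3 libraries whose reads could be recovered, and from 162580 to 336969 for IRF4. As a check of the sorted cells, IRF4 at its peak in the Foxp3 gene was 88.5 ± 7.88 (SD, n = 4) in Treg and 1.18 ± 1.36 in Tconv cells. Of BATF peaks at the Treg markers Foxp3, Il2ra, Ctla4, Ikzf2 and Nrp1, 25 of 28 were called higher in Treg cells, where 14.9% of all BATF peaks were (limma, adjusted p below 0.05). The Foxp3 table held no peak at the B-cell markers (such as Cd79a, Ms4a1, Pax5 and Ebf1) or the myeloid markers (Lyz2, Itgam, Csf1r, Cebpa, Spi1), while the first BATF table held 3 and 2 such peaks, of which 1 and 1 were called higher in Treg cells. At markers of CD8 and NK cells the first BATF table held 11 peaks, 1 called higher and 2 lower in Treg cells, where 4.79% of all were lower. The Foxp3 table held 2, both at Klrb1c, which encodes NK1.1, and 1 of them was called higher in effector than in central cells (62.5 ± 7.80 against 23.7 ± 4.16, SD, n = 2; limma adjusted p = 0.000416), where 15.0% of all Foxp3 peaks were. The part of other cells in the values below was not tested.

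Satb1 lies on the minus strand of chromosome 17 at chr17:51736187-51833290 (GRCm38.p6, the mm10 assembly) and spans 97104 bp, with 5 annotated start sites in RefSeq. It stands alone: the nearest protein-coding neighbours are Tbc1d5, 555 kb beyond its 3′ end, and Kcnh8, 769 kb upstream. A long non-coding RNA gene, Gm20098, begins 49.4 kb upstream of Satb1. The 24 peaks merged into 13 sites. Of these sites, 6 lay in the gene body, 6 upstream, and 1 lay 0.302 kb beyond the 3′ end. Distances of sites below are from the outermost start site, at position 51833290. Peak coordinates follow the deposited tables, whose counting base (from 0 or from 1) the sources used here do not give.

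The promoter of that outermost start site is shown because a Foxp3 peak, chr17:51833024-51833424, covers the start site and the bases just before it. No other peak touched the RefSeq promoter window of any of the 5 start sites. The 250 bases before the start site, chr17:51833291-51833540 on the minus strand (RefSeq sequence, GRCm38.p6), are printed 5′ to 3′ with the 134 bases inside the Foxp3 peak in capitals.
Satb1 promoter: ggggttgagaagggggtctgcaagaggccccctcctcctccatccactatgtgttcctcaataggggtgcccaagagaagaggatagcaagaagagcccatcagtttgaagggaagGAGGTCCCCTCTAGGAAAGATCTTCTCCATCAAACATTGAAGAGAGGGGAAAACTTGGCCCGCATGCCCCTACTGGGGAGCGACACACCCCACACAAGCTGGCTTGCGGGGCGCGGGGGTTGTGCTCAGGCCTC
Its G and C content was 58%, against a median of 55.6% over 21263 promoters of the same length (interquartile range 47.2 to 64%). No match on either strand was found here, or in the 250 bases before any of the 4 other start sites, to the forkhead motif TGTTTAC, the AP-1 motif TGANTCA, the ETS motif CCGGAAG, the Runx motif TGTGGTT, the interferon element or either of 2 BATF-IRF composite motifs. Among all promoters, 2.62% held the forkhead motif, 6.13% the AP-1 motif, 8.98% the ETS motif, 3.82% the Runx motif, 2.96% the interferon element, and 0.103% and 0.122% the adjacent and the spaced composite. The composites contain the AP-1 motif. Sequences of the other sites, and the part of this Foxp3 peak past the start site, were not analysed here.

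The 3 factors met upstream of the gene. Peaks of Foxp3, BATF and IRF4 fell together at 3 sites, 46.9, 59.8 and 70.8 kb upstream, and the last 2 lie inside Gm20098. Foxp3 and BATF peaks overlapped without IRF4 at 2 further sites, 0.644 kb and 73.4 kb upstream, the latter with BATF in the second table. The other 8 sites held peaks of a single factor. Inside the gene body no peak of one factor overlapped a peak of another: Foxp3 had 4 peaks there and BATF 2. Of the 10 Foxp3 peaks, 4 (40%) overlapped a peak of the first BATF table by at least 1 bp, which is 57.1% of the 7 BATF peaks, and 2 of 10 (20%) overlapped an IRF4 peak. Each IRF4 peak, 3 in all, touched a peak of the first BATF table, but the one 46.9 kb upstream shared too few bases with BATF to count at a reciprocal overlap of 50% and did not touch the Foxp3 peak of that site. By number of Foxp3 peaks, Satb1 was among the fullest loci: of 2876 genes with at least 1 Foxp3 peak, 45 had more than 10. Its neighbours are far, so the rule gives it the full 100 kb on both sides, and genes with close neighbours less. The count was not scaled for the length of this stretch.

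**Figure D1:**
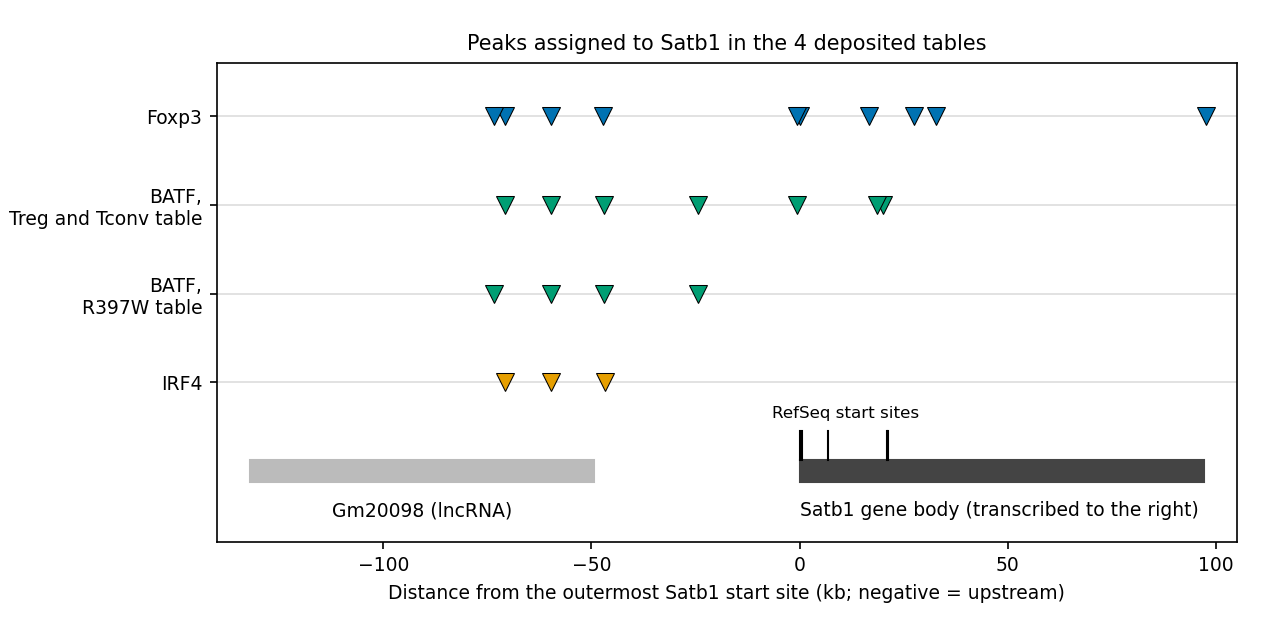
Map of the 24 peaks assigned to Satb1 by distance from its outermost start site (kb, negative is upstream), one row per deposited table, with the gene body, the RefSeq start sites and the lncRNA Gm20098 below. All 3 IRF4 peaks lie upstream, at the sites where BATF also has a peak, while Foxp3 peaks stand on both sides of the start site.

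At all 10 Satb1 peaks, effector Treg cells had less Foxp3 signal than central ones, by 3.71-fold to 13.96-fold on the scale of log2(value + 1). This contrast is the one Satb1 was chosen from. The median log2 fold change of the 10 peaks was -2.94, from -3.80 to -1.89, and that of all 6396 peaks was -0.01. All values come from populations of cells, in which fewer cells with bound Foxp3 and less bound Foxp3 per cell cannot be told apart.

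The peak with the largest difference lies 32.9 kb into the gene (chr17:51800210-51800610). Foxp3 there was 5.07 and 2.88 normalised reads in the 2 effector libraries and 54.6 and 81.6 in the 2 central libraries. The effector values stand for 4 and 5 reads, so the 13.96-fold ratio to central cells rests on few reads. Bulk Treg cells had 47.5 and 53.5, and Batf-/- Treg cells 51.8 and 77.2. Both effector libraries were below each of the other 6. This was the Satb1 peak known from earlier results of these data.

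Next in size came the peaks 27.4 kb into the gene and 59.8 kb upstream, both among the weaker Foxp3 peaks of the locus. At 27.4 kb into the gene (chr17:51805649-51806049) the values were 1.27 and 3.46 in effector cells, 33.3 and 44.5 in central, 24.3 and 25.9 in bulk and 20.3 and 25.7 in Batf-/- Treg cells. At 59.8 kb upstream (chr17:51892891-51893291), in Gm20098, they were 2.53 and 3.46 in effector, 32.0 and 58.6 in central, 19.2 and 21.7 in bulk and 16.3 and 32.2 in Batf-/- cells. Effector libraries held 1 to 6 reads at these 2 peaks, so that their ratios to central cells, 12.4 and 11.2, rest on few reads. At both peaks bulk cells stood between the subsets without overlapping either.

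The 2 Foxp3 peaks farthest upstream were the strongest of the locus, with means over the 8 libraries above those of 97.7% and 94.9% of all Foxp3 peaks. At 70.8 kb upstream (chr17:51903930-51904330), where BATF and IRF4 also have peaks, values were 15.2 and 12.7 in effector, 90.6 and 121 in central, 144 and 136 in bulk and 237 and 139 in Batf-/- cells. At 73.4 kb upstream (chr17:51906392-51906792) they were 10.1 and 10.4 in effector, 83.9 and 119 in central, 82.9 and 127 in bulk and 141 and 135 in Batf-/- cells. Central exceeded effector libraries 7.09-fold and 8.98-fold here. The effector libraries were again the 2 lowest of the 8 at each peak.

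Around the start site the difference was smallest. At the peak that covers the outermost start site, whose promoter bases are printed above, values were 15.2 and 13.8 in effector, 71.9 and 44.5 in central, 46.5 and 47.6 in bulk and 36.6 and 83.6 in Batf-/- cells. At the peak 0.644 kb upstream (chr17:51833735-51834135) they were 10.1 and 4.04 in effector, 26.6 and 33.4 in central, 70.8 and 56.0 in bulk and 76.2 and 77.2 in Batf-/- cells. The fold between central and effector was 3.71 and 4.11. At the second of these peaks, as at the one 70.8 kb upstream, both bulk libraries lay above both central libraries in deposited values. The totals of those values over all Foxp3 peaks were also larger in bulk (262452 and 264551) than in central libraries (219415 and 224050).

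Of the 3 Foxp3 peaks left, the one 46.9 kb upstream (chr17:51880205-51880605) had 12.7 and 6.34 in effector, 34.6 and 55.6 in central, 51.6 and 60.1 in bulk and 113 and 75.9 in Batf-/- cells. The one 16.6 kb into the gene (chr17:51816489-51816889) had 3.80 and 3.46 in effector, 30.6 and 40.8 in central, 30.3 and 37.6 in bulk and 33.5 and 27.0 in Batf-/- cells. The one just beyond the 3′ end (chr17:51735485-51735885) had 6.34 and 3.46 in effector, 34.6 and 51.2 in central, 17.2 and 5.85 in bulk and 14.2 and 16.7 in Batf-/- cells. This last peak was the exception to an order held at the other 9, where both effector libraries were below all 6 others: here 1 bulk library, at 5.85, fell within the effector range.

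Summed over the 10 peaks, Foxp3 was 64.0 and 82.4 normalised reads in the effector libraries, 493 and 650 in the central, 534 and 571 in the bulk and 690 and 740 in the Batf-/- libraries. As a share of all normalised reads in Foxp3 peaks, that was 0.0282 to 0.0375% in effector, 0.225 to 0.290% in central, 0.203 to 0.216% in bulk and 0.270 to 0.276% in Batf-/- cells. The effector libraries stood apart. Central and bulk libraries overlapped in the sum, but in the share both bulk libraries were below both central ones. All normalised reads in Foxp3 peaks came to 262452 and 264551 in the bulk and 219415 and 224050 in the central libraries. In deposited values, not rescaled to equal totals, bulk wild-type means fell between those of the subsets at 6 of 10 peaks and above the central mean at 4. Reads in all Foxp3 peaks were 173516 and 393310 in the effector and 164740 and 302207 in the central libraries. At Satb1 the effector libraries held 1 to 24 reads a peak, with a median of 6. The central libraries held 20 to 163, with a median of 57. The part of sequencing depth and enrichment in this difference was not tested.

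**Figure D2:**
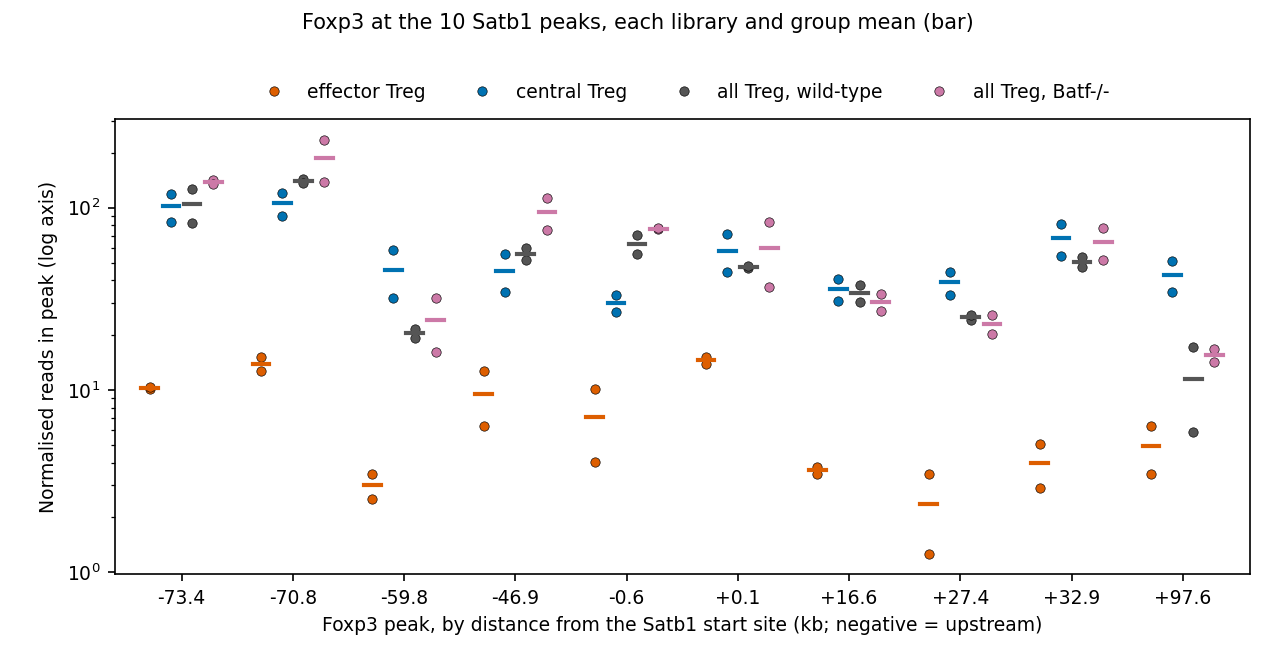
Foxp3 normalised reads (log axis) at the 10 Satb1 peaks, ordered by distance from the outermost start site (kb, negative is upstream), with a point per library and a bar at the mean of 2 libraries for each of the 4 groups. The effector points, from 1.27 to 15.2, lie below all other points at every peak but the one beyond the 3′ end (+97.6 kb).

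Without BATF, Foxp3 at Satb1 was not called lower or higher at any of the 10 peaks. Over all Foxp3 peaks, limma on log2(value + 1) called 3.91% lower and 0.547% higher in Batf-/- than in bulk wild-type Treg cells (Benjamini-Hochberg adjusted p below 0.05). One Satb1 peak had an unadjusted p below 0.05. Log2 fold changes of the 10 ran from -0.16 to 0.72 with a median of 0.30, against a median of 0.05 over all peaks, with 8 positive and 2 negative. Both Batf-/- libraries lay above both wild-type libraries at 3 peaks and below them at none. How often this order occurs over all Foxp3 peaks was not counted.

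The largest of these differences was 46.9 kb upstream, where the Foxp3 peak overlaps BATF but does not touch the IRF4 peak of that site. Foxp3 there was 94.4 ± 26.1 (SD, n = 2) in Batf-/- and 55.9 ± 6.06 in wild-type cells (log2 fold change 0.72, SE 0.33, limma adjusted p = 0.253). The 95% confidence interval of that change was 0.04 to 1.40 before adjustment. Of the other 2 sites with peaks of all 3 factors, the one 59.8 kb upstream changed by 0.16 (interval -0.74 to 1.06, limma adjusted p = 0.907). The one 70.8 kb upstream changed by 0.37 (-0.18 to 0.93, limma adjusted p = 0.525). The limma intervals of the 4 Foxp3 peaks that overlap a peak of the first BATF table therefore reached no lower than -0.74, and the lowest bound at any of the 10 peaks was -1.01, at the peak 27.4 kb into the gene. No Foxp3 peak was assigned to Batf itself, so the deletion was not checked in these data.

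**Figure D3:**
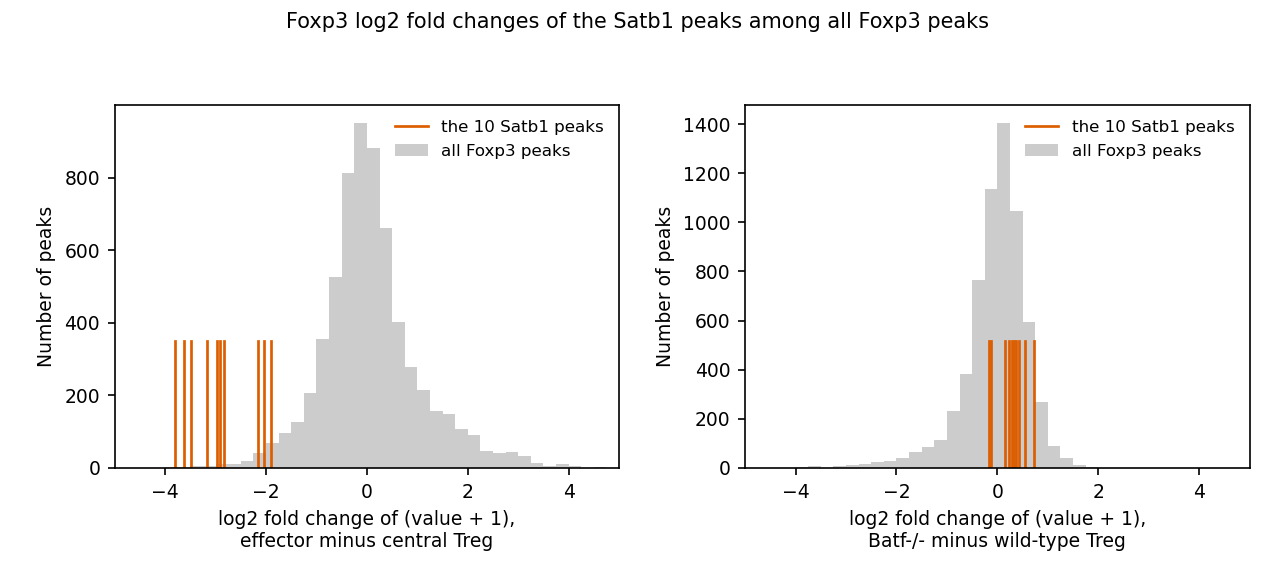
Histograms of log2 fold changes of (value + 1) over all 6396 Foxp3 peaks in bins of 0.25 (grey; vertical axis, number of peaks), for effector minus central (left) and Batf-/- minus wild-type Treg cells (right), with the 10 Satb1 peaks as orange lines. The Satb1 lines lie between -3.80 and -1.89 on the left and between -0.16 and 0.72 on the right.

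BATF at Satb1 differed between Treg and Tconv cells at 1 of 7 peaks, which was lower in Treg cells. Over all peaks of that table, limma called 4.79% lower and 14.9% higher in Treg cells. The peak called lies 59.8 kb upstream, in Gm20098 (chr17:51892843-51893243). BATF there was 18.7 and 12.4 in the Treg and 69.7 and 59.3 in the Tconv libraries (15.5 ± 4.41 against 64.5 ± 7.37, SD, n = 2). The log2 fold change was -2.01 (SE 0.41, adjusted p = 0.00181), or 4.02-fold lower in Treg cells, and both Treg libraries lay below both Tconv libraries. It was a weak peak, with a mean above that of 12.6% of BATF peaks.

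No other BATF peak of the locus passed the test. The strongest, 70.8 kb upstream, had 114 and 87.0 in Treg and 116 and 187 in Tconv cells, a log2 fold change of -0.56 (SE 0.25, limma adjusted p = 0.137). Both Treg libraries were below both Tconv libraries there, the lower Tconv library by a small margin. The weakest, 24.5 kb upstream, had 12.4 and 10.2 in Treg and 26.7 and 20.7 in Tconv cells (95% interval of the log2 fold change -2.19 to 0.19, adjusted p = 0.259). At 46.9 kb upstream the groups overlapped, with 47.7 and 82.4 in Treg and 66.2 and 92.1 in Tconv cells (-0.31, SE 0.31, adjusted p = 0.564).

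Near the start sites BATF showed the other direction or none. At 0.644 kb upstream, where Foxp3 also has a peak, BATF was 62.2 and 48.6 in Treg and 60.4 and 47.1 in Tconv cells, a log2 fold change of 0.04 (SE 0.32, limma adjusted p = 0.954). The 2 peaks inside the gene stand close to an inner pair of start sites, the nearer one 1.10 kb from the start site at 51812184. That peak, 20.0 kb into the gene, had 78.8 and 65.5 in Treg and 44.1 and 50.7 in Tconv cells (0.59, SE 0.30, adjusted p = 0.202), and its libraries did not overlap. Its neighbour, 18.7 kb into the gene, had 67.4 and 113 in Treg and 69.7 and 115 in Tconv cells (-0.04, SE 0.30, adjusted p = 0.958). Summed over the 7 peaks, BATF was 401 and 419 in Treg and 453 and 572 in Tconv cells.

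IRF4 gave the same order at the same site. Of the 3 IRF4 peaks, the one 59.8 kb upstream (chr17:51892876-51893276) was called lower in Treg cells, and the other 2 were not called. Over all IRF4 peaks, limma called 8.39% lower and 15.8% higher in Treg cells. IRF4 at that peak was 1.84, 3.17, 7.48 and 2.56 in the 4 Treg and 14.5, 21.6, 9.02 and 11.4 in the 4 Tconv libraries (3.76 ± 2.54 against 14.1 ± 5.45, SD, n = 4; log2 fold change -1.73, SE 0.53, adjusted p = 0.0183). Every Treg library was below every Tconv library. The peak was among the weakest of the table, above 2.84% of IRF4 peaks, with 2, 2, 7 and 3 reads in the Treg and 18, 31, 10 and 10 in the Tconv libraries. The call did not hold without Treg library 1 (adjusted p = 0.0514) or Tconv library 2 (adjusted p = 0.0786).

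The 2 stronger IRF4 peaks, above 88.6% and 87.2% of IRF4 peaks, overlapped between the cell types. At 46.9 kb upstream IRF4 was 20.3, 39.7, 37.4 and 45.2 in Treg and 32.3, 68.2, 47.8 and 54.9 in Tconv cells, a log2 fold change of -0.51 (SE 0.28, limma adjusted p = 0.206). At 70.8 kb upstream it was 25.8, 41.2, 43.8 and 32.4 in Treg and 38.0, 55.0, 34.3 and 56.0 in Tconv cells (-0.34, SE 0.26, adjusted p = 0.379). Both means were higher in Tconv cells by less than the test could call.

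**Figure D4:**
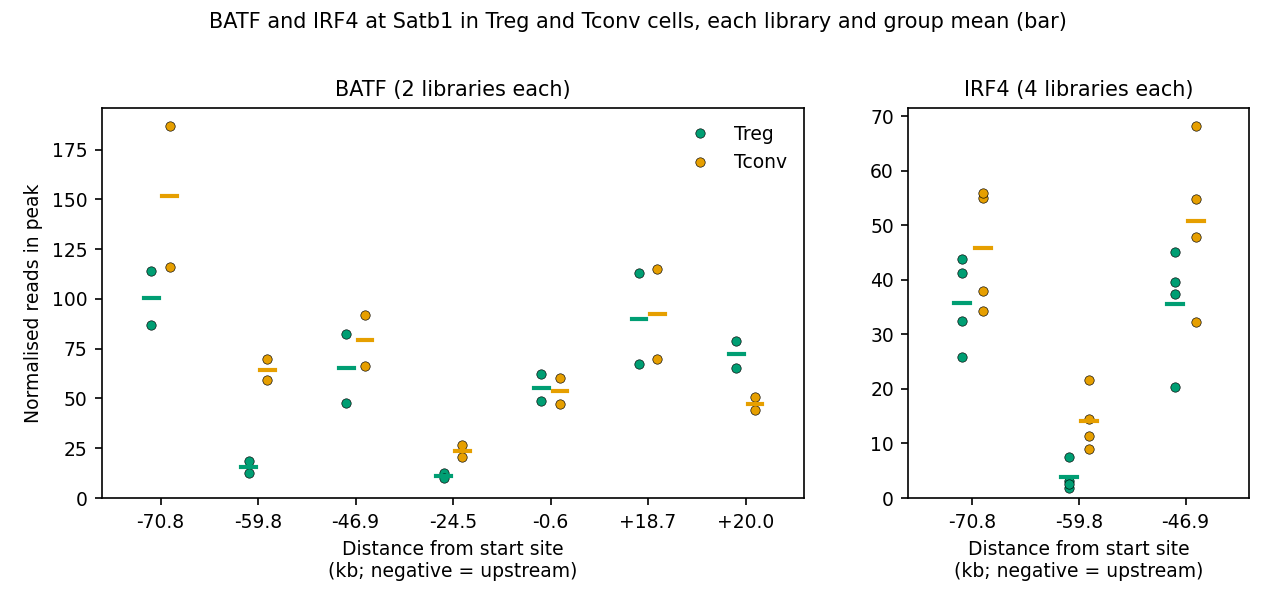
Normalised reads of BATF (left, 7 peaks, 2 libraries per cell type) and IRF4 (right, 3 peaks, 4 libraries per cell type) at Satb1, by distance from the outermost start site (kb, negative is upstream), with a point per library and a bar at each mean. At -59.8 kb the Treg points of both factors lie below all Tconv points.

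BATF in R397W Treg cells was not called different from the controls at any of the 4 Satb1 peaks of the second BATF table. Over all its peaks, limma called 8.04% lower and 0.612% higher in R397W cells. At Satb1 the 4 log2 fold changes were positive, from 0.13 to 0.93, with a median of 0.73 against -0.02 over all peaks. One of the 4 had an unadjusted p below 0.05. Both edgeR and DESeq2 on recovered reads also called 0 of the 4. The control libraries held 2 to 28 reads a peak.

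The difference best supported by reads was at 73.4 kb upstream (chr17:51906532-51906932), where BATF was 71.8 and 68.6 in R397W and 35.5 and 38.0 in control cells (70.2 ± 2.27 against 36.8 ± 1.81, SD, n = 2; log2 fold change 0.92, SE 0.33, limma adjusted p = 0.101). In a fit of all 8 libraries of the table the adjusted p was 0.0445. The earlier Treg libraries had 51.8 and 60.4 there and the Tconv libraries 47.9 and 63.7, so R397W cells were highest and their own controls lowest of the 4 groups.

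At 46.9 kb upstream BATF was 51.3 and 57.5 in R397W and 43.2 and 31.1 in control cells (log2 fold change 0.55, SE 0.36, limma adjusted p = 0.398). At 24.5 kb upstream it was 17.1 and 10.4 against 6.17 and 6.92 (0.93, SE 0.78, adjusted p = 0.532), with 10, 15, 4 and 2 reads. R397W and control libraries did not overlap at these 2 peaks. At 59.8 kb upstream they did, with 17.1 and 7.62 in R397W and 6.17 and 17.3 in control cells (0.13, SE 0.78, interval -1.52 to 1.77, adjusted p = 0.945). The Tconv libraries of the same table stood at 42.3 and 36.5 at that site and the Treg libraries at 10.7 and 7.22, so all 6 libraries of hCD2+ cells, R397W included, lay below both Tconv libraries.

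**Figure D5:**
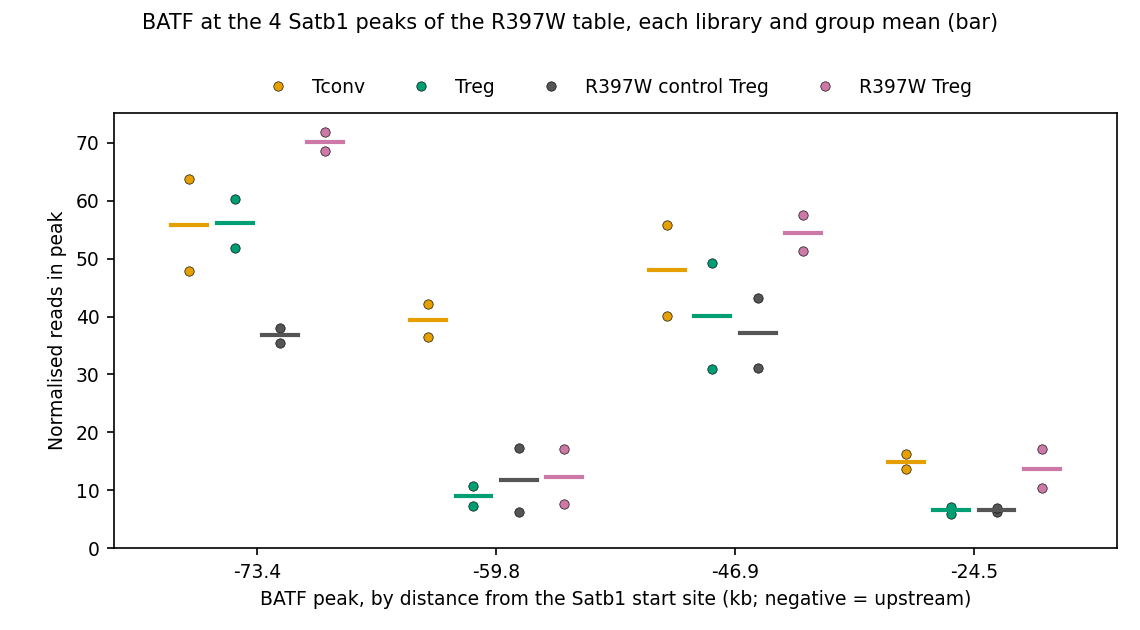
BATF normalised reads at the 4 Satb1 peaks of the second BATF table, by distance from the outermost start site (kb, negative is upstream), with a point per library and a bar at the mean of 2 libraries for Tconv, Treg, R397W control and R397W Treg cells. R397W points lie above their control points at -73.4, -46.9 and -24.5 kb, and at -59.8 kb the Tconv points, 42.3 and 36.5, lie above all others.

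The distance limit of 100 kb fell in a wide gap. The outermost peaks inside it lay 73.1 kb (Foxp3) and 73.2 kb (BATF, second table) from the gene body, and the next peak lay 229 kb upstream, a BATF peak with 41.1 ± 0.96 in Treg and 52.5 ± 4.58 in Tconv cells (n = 2, SD). Peaks of all 3 factors followed at 231 and 243 kb upstream, with Satb1 still the nearest protein-coding gene. They are given without a test.

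These 2 outer sites had more BATF in Treg than in Tconv cells. At 231 kb (BATF peak chr17:52064663-52065063) BATF was 121 and 134 in Treg and 39.5 and 38.6 in Tconv cells, and 56.4 and 61.7 in R397W against 108 and 96.8 in control cells. Foxp3 there was 12.7 and 20.2 in effector, 36.0 and 42.3 in central, 60.7 and 69.3 in bulk and 78.2 and 28.3 in Batf-/- cells, and IRF4 was 44.9 ± 17.0 in Treg and 32.4 ± 16.4 in Tconv cells (n = 4, SD). R397W libraries were thus below their controls in BATF at this site. Of the 4 BATF peaks within the limit, none was called in that comparison.

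At 243 kb (chr17:52076738-52077138) BATF was 113 and 91.5 in Treg and 2.32 and 2.86 in Tconv cells, and 15.4 and 35.3 in R397W against 63.2 and 93.4 in control cells. IRF4 was 24.9, 27.0, 31.0 and 43.5 in Treg and 4.04, 6.96, 8.12 and 6.86 in Tconv cells. Foxp3 was 6.34 and 7.50 in effector, 6.66 and 7.41 in central, 31.3 and 19.2 in bulk and 9.15 and 5.15 in Batf-/- cells. Effector and central cells overlapped there, and both Batf-/- libraries were below both bulk wild-type ones.

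Genes whose summed Foxp3 signal was like that of Satb1 over the 8 Foxp3 libraries were looked for among 1119 other genes with at least 2 Foxp3 peaks. Among the 5 most alike by Pearson correlation of log2(sum + 1) were Itm2b (r = 0.979), a membrane protein gene, Slc30a7 (0.975), a zinc transporter, Bcl2l11 (0.974), which encodes the pro-apoptotic protein BIM, and Crtc3 (0.973), a CREB coactivator. The points share libraries and groups, and these values are a description over 8 libraries. In each of these genes, as at Satb1, the effector libraries had the lowest sums. Satb1 was chosen from the effector against central contrast, so the likeness partly restates that choice.

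3 lists of related genes were followed through the same fits, counted without the Satb1 peaks. They were set with earlier results of these data known. Values given for a gene are those of its peak of smallest p in that comparison. The first holds SATB1's relatives and partner factors in chromatin and T cells (25 genes with Satb1 itself, such as Bcl11b, Runx1, Ets1, Tox, Lef1 and Tcf7). In effector against central cells 13 of its 79 Foxp3 peaks were called lower and 10 higher, where limma called 10.8% of all peaks lower and 15.0% higher. Foxp3 at a peak in Lef1, a TCF family factor of resting T cells, was 20.5 ± 2.06 in effector and 73.6 ± 8.06 in central cells (SD, n = 2; log2 fold change -1.80, SE 0.26, limma adjusted p = 2.03e-05). Foxp3 at a peak in Tox, an HMG-box factor, took the other direction, 59.7 ± 21.7 against 7.26 ± 2.92 (2.88, SE 0.38, adjusted p = 6.58e-06).

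In Batf-/- cells 3 of those 79 Foxp3 peaks were called lower and 0 higher, shares near the 3.91% lower and 0.547% higher of all peaks. The same Tox peak had 13.0 ± 7.48 in Batf-/- and 98.5 ± 2.27 in wild-type cells (SD, n = 2; -2.94, SE 0.38, adjusted p = 2.30e-05). BATF in Treg against Tconv cells was called higher at 23 and lower at 14 of 119 peaks of the list, beside 14.9% and 4.79% of all peaks. IRF4 was called higher at 11 and lower at 7 of 73, near the 15.8% and 8.39% of all peaks. In R397W cells BATF was called lower at 5 and higher at 1 of 44 peaks, beside 8.04% and 0.612%. At Ets1, a lymphoid ETS factor, BATF was 343 ± 3.21 in Treg and 55.6 ± 23.1 in Tconv cells (2.67, SE 0.25, limma adjusted p = 1.64e-06).

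The second list holds 20 genes known to be regulated by SATB1 in T cells, among them Foxp3, Il2ra, Ctla4, Ikzf2 and Icos. Of these, Foxp3, Il2ra, Ctla4 and Ikzf2 are also Treg markers of the check above. The markers, with Nrp1, had 25 of 28 BATF peaks and 10 of 15 IRF4 peaks called higher in Treg cells. Counts of this list therefore share peaks with that check. BATF was called higher in Treg cells at 27 of its 73 peaks and lower at 1, beside 14.9% and 4.79% of all peaks, and IRF4 higher at 10 and lower at 2 of 36, beside 15.8% and 8.39%. Foxp3 in effector against central cells was called higher at 12 and lower at 9 of 52 peaks, beside 15.0% and 10.8% of all peaks, and in Batf-/- cells lower at 5 and higher at 0, beside 3.91% and 0.547%. BATF in R397W cells was called lower at 4 and higher at 0 of 32 peaks, beside 8.04% and 0.612%. BATF at Ikzf2, which encodes Helios, was 523 ± 107 in Treg and 44.7 ± 2.43 in Tconv cells (n = 2, SD; log2 fold change 3.51, SE 0.21, limma adjusted p = 4.48e-08). Satb1 itself had 0 of 7 BATF peaks called higher, and it was not tested against this list.

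The third list holds 12 other genes of resting T cells, among them Ccr7, Klf2, Lef1, Tcf7, Bach2 and Foxp1. Foxp3 in effector against central cells was called lower at 31 of its 62 peaks and higher at 4, beside 10.8% and 15.0% of all peaks. The median log2 fold change of the 62 was -0.95, beside -0.01 over all peaks. The list was set with earlier results known, so these counts are a description. Satb1 was chosen from this contrast and is not ranked against the list. At Foxp1, a forkhead factor of resting lymphocytes, Foxp3 was 29.8 ± 11.7 in effector and 190 ± 27.3 in central cells (SD, n = 2; -2.68, SE 0.27, limma adjusted p = 1.20e-07). In Batf-/- cells 2 of the 62 peaks were called lower and 0 higher, near the 3.91% and 0.547% of all peaks. BATF in Treg against Tconv cells was called higher at 28 and lower at 14 of 136 peaks, beside 14.9% and 4.79%. IRF4 was called higher at 14 and lower at 10 of 87, beside 15.8% and 8.39%. BATF in R397W cells was called lower at 6 and higher at 0 of 68, near the 8.04% and 0.612% of all peaks. Bach2 encodes a repressor that holds lymphocytes in a resting state. At its peak of smallest p, Foxp3 was 12.0 ± 1.19 in Batf-/- and 80.4 ± 12.1 in wild-type cells (-2.64, SE 0.31, limma adjusted p = 6.04e-06).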

How the data were processed

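Foxp3, BATF and IRF4 ChIP-seq of mouse CD4 T cells was analysed from 4 deposited peak tables. The submitters' processing notes name the mm10 build, DiffBind 3.12.0, edgeR 3.38.4, Bowtie2 2.4.1 and MACS2 2.2.7.1. The deposited values are a signal per peak and library, normalised by the authors. Within each library they are whole multiples of 1 value, so reads in peaks were recovered for all library columns but 1 Foxp3 column (bulk wild-type Treg 1). Input libraries have no column of their own and were not used here.

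Peaks were given to the closest gene body among protein-coding RefSeq genes (GRCm38.p6). Comparisons were fitted over all peaks of a table with limma 3.58.1 (R 4.3.3, trend) on log2(value + 1), two-sided, with Benjamini-Hochberg adjustment over all peaks. Both Foxp3 comparisons came from one fit of 8 libraries, and the others from their own libraries alone. Calls are at an adjusted p below 0.05. Groups of libraries that do not overlap are described at single peaks, and such orders were not counted over all peaks. Adding 1 understates fold changes of weak peaks. The fits were tested on simulated data. Intervals cover the spread between libraries, and read numbers carry counting error.

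The locus, its peaks and the gene lists were chosen with earlier results of these data known. Named items were all Satb1 peaks, peaks at 100 to 300 kb from it, the 5 genes most alike in Foxp3 signal (1 is not reported here), up to 3 genes of smallest p per list and comparison, and the annotated neighbours. The alternatives were edgeR 4.0.16 and DESeq2 1.42.0 on recovered reads, quantile scaling, a pseudocount of 5, a filter on weak peaks, no trend, other sets of libraries, a replicate block and each library left out.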

Additional observations from a re-analysis of the deposited data

How the results depend on the processing

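The effector against central difference, from which the gene was chosen, is a description and its calls are not given. In Batf-/- cells 0 peaks were called throughout. The BATF peak 59.8 kb upstream stayed called lower in Treg cells wherever it was kept (adjusted p up to 0.0105). The count of lower BATF peaks was 0 with the filter on weak peaks, which removes that peak, and 2 without a trend and with quantile scaling, which add the peak 24.5 kb upstream. It was 1 to 2 with a library left out: without Tconv library 1 the peak 70.8 kb upstream was called (adjusted p = 0.0119). Lower IRF4 peaks were 0 with the filter, which removes the peak called, and 0 to 1 with a library left out. In R397W cells 1 BATF peak was called higher in a fit of all 8 libraries. With a limit of 50 kb, 5 Satb1 peaks of the first BATF table, 2 of the second, 7 Foxp3 peaks and 1 IRF4 peak stayed. The BATF and IRF4 peaks called lower in Treg cells, each 59.6 kb from the gene body, fall outside that limit. At 50% reciprocal overlap 1 peak was shared between the second BATF table and the IRF4 table.

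Log2 fold changes that turned sign were of peaks not called. BATF in Treg cells 0.644 kb upstream was -0.17 with quantile scaling. With a library left out, BATF changes ranged from -0.13 to 0.22 at that peak, from -0.41 to 0.33 at 18.7 kb into the gene and from -0.70 to 0.077 at 46.9 kb upstream. Those of Foxp3 in Batf-/- cells ranged from -0.15 to 1.26 beyond the 3′ end, from -0.29 to 0.036 at 27.4 kb into the gene, from -0.35 to 0.82 at the start site, from -0.31 to 0.63 at 59.8 kb upstream and from -0.0089 to 0.76 at 70.8 kb upstream. BATF in R397W cells 59.8 kb upstream ranged from -0.55 to 0.80, where leaving out R397W library 1 gave -0.41 and library 2 gave 0.66.

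Nothing in the labels ties libraries with the same replicate number, and deviations of same-numbered libraries correlated at 0.09 for BATF, 0.14 and 0.08 in the Foxp3 comparisons, and 0.03 to 0.13 for IRF4. With the replicate number as a block, called Satb1 peaks stayed at 1 of 7 for BATF, 1 of 3 for IRF4, and 0 of 10 for Foxp3 in Batf-/- cells. No paired analysis was possible for R397W because the control columns carry no matching numbers. The count tests were not run for Batf-/- cells, since reads of one wild-type library were not recovered. Quantile scaling moved the median change over the whole BATF table from -0.03 to -0.13 and over the R397W table from -0.02 to 0.13.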

Other observations

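Between 300 and 350 kb upstream, 3 further sites still have Satb1 as nearest protein-coding gene, and all 3 are given, without a test. At 316 kb upstream (chr17:52148984-52149384) only Foxp3 had a peak, with 41.8 and 58.3 in effector, 33.3 and 39.3 in central, 99.1 and 63.5 in bulk and 37.6 and 29.6 in Batf-/- Treg cells. Both effector libraries were above both central libraries there, unlike at the 10 Foxp3 peaks within 100 kb. At 329 kb upstream (chr17:52162562-52162962) BATF was 412 and 412 in Treg and 173 and 217 in Tconv cells, and IRF4 was 171 ± 22.3 in Tconv and 224 ± 27.4 in Treg cells (SD, n = 4). Both Treg values of BATF were above any BATF value within 100 kb of the gene. At 335 kb upstream (chr17:52168550-52168950) Foxp3 was 1.27 and 6.34 in effector, 47.9 and 63.8 in central, 64.7 and 70.2 in bulk and 79.3 and 77.2 in Batf-/- Treg cells. The effector libraries were the 2 lowest of the 8, as at 9 of the 10 Foxp3 peaks within 100 kb. IRF4 at that site was 4.61, 42.8, 18.2 and 17.0 in Treg and 38.8, 76.6, 43.3 and 46.9 in Tconv cells, and 1 Treg library overlapped the Tconv range.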
